A study of Mus musculus with 1677 samples.

Results

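The stomach of mice under time-restricted feeding (TRF) was compared with the stomach of mice fed ad libitum (ALF) over 12 clock times of a day. The libraries were the columns of the deposited count table whose names begin with the stomach and a clock time, which gave 48 of the 1035 libraries in the table, 24 of TRF and 24 of ALF. All mice were wild-type C57BL/6J animals, bought at 10 weeks of age, kept for 2 weeks on chow under 12 h of light and 12 h of darkness, and then for 7 weeks on a Western diet with 45% fat and 17% sucrose. TRF mice had food for 9 h a day, ZT13 to ZT22, and ALF mice had it at all hours; ZT counts hours from lights on. Each feeding group had 2 libraries at each clock time, ZT0 to ZT22 in steps of 2 h. The labels do not say whether libraries of 1 clock time came from separate mice, so each p-value measures the spread between these libraries, which may be in part technical. The study asks how feeding restricted to the active phase changes gene expression over the day across many tissues.

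The mouse stomach has a squamous forestomach, which stores food, and a glandular part. In the glands parietal cells secrete acid through a proton pump, chief cells make pepsinogens, pit and neck cells make mucins and trefoil peptides, and endocrine cells release ghrelin, gastrin, somatostatin and histamine. Ghrelin rises in fasting and drives feeding, while histamine and gastrin raise acid output and somatostatin holds it down. In peripheral organs the circadian clock, a loop of activators (Bmal1, Clock) and their repressors (Per, Cry, Rev-erb), takes part of its timing from meals, and fuel genes follow the alternation of feeding and fasting.

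Total counts were 5.18 to 76.01 M in TRF libraries (median 14.8 M) and 8.15 to 62.23 M in ALF libraries (median 16.96 M), which sets the counting precision of each value. The tissue label was checked against stomach markers: the pepsinogen Pgc had 54750 to 229500 CPM (counts scaled to a common library total) in TRF and 57480 to 182500 CPM in ALF libraries, and the proton pump subunit Atp4a had 3031 to 7554 and 4111 to 7587 CPM. Both were therefore present in every library. Markers of the chief cells summed to a median of 132400 CPM in TRF and 133800 CPM in ALF libraries. The TRF library of ZT20 numbered 2 stood apart: its Pearson correlation with the mean of the others was the lowest (0.94), and results it decides are given without it. Libraries also differed in how their counts depended on GC content. Across genes the log2 fold change between the feeding groups had a Spearman correlation of 0.589 with GC content, and 0.00389 after an offset for each library's GC trend. Where that offset ends a call, it is said beside the gene.

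Of 14838 genes tested for a difference in mean level over the day, 3677 passed an adjusted p of 0.05 (24.8%; edgeR quasi-likelihood test, Benjamini-Hochberg adjustment, clock time as a factor). In TRF 2141 genes (14.4%) were higher and 1536 (10.4%) lower. With GC offsets 1648 genes (11.1%) passed, 837 (5.64%) higher and 811 (5.47%) lower, and 1167 genes (7.86%) passed both tests in the same direction, 736 (4.96%) higher and 431 (2.9%) lower. Most differences were small: 566 of the 3677 had an absolute log2 fold change of at least 0.5, 521 of them higher in TRF. The 2 libraries of a clock time did not contribute alike. With the libraries numbered 1 alone 250 genes passed, and 8 with GC offsets; with those numbered 2 alone 2200 and 1106 passed.

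The largest fall was in Lep, the gene of leptin, a satiety hormone made by fat cells and in rodents also in the gastric mucosa. Lep had a lowest, median and highest level of 0.478, 2.24 and 8.97 CPM in TRF libraries, against 2.27, 8.40 and 34.7 CPM in ALF libraries. The groups overlapped, but the mean log2 level, on which clock times are counted throughout, was lower in TRF at 12 of 12 clock times. The log2 fold change was -2.04 ± 0.33 (SE, n = 24 each), with an adjusted p of 0.00024. Other fat cell genes did not share that size: Adipoq, the gene of adiponectin, had a log2 fold change of -0.20 (adjusted p = 0.394) and the lipid droplet gene Plin1 of 0.06 (adjusted p = 0.843). The summed level of the 14 adipocyte markers had a median of 766.9 CPM in TRF, 432.4 to 1114 CPM, and of 800.7 CPM in ALF, 493.2 to 1286 CPM. Of these 14 markers 4 rose and 3 fell, against 14.4% higher and 10.4% lower among all genes tested. Whole tissue was sequenced, so here and for every cell type below fewer cells of a type and less RNA per cell cannot be told apart.

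Npr3, the clearance receptor for natriuretic peptides, was second among the falls. It had 1.16, 3.19 and 7.32 CPM in TRF (lowest, median, highest) and 2.27, 6.68 and 17.8 CPM in ALF libraries, with a log2 fold change of -1.20 ± 0.17 (adjusted p = 6.7e-05). Cybrd1, an iron reductase of the gut epithelium that serves iron uptake, had 92.0, 250.8 and 463.5 CPM in TRF and 213.4, 375.4 and 823.3 CPM in ALF libraries (log2 fold change -0.72 ± 0.15, adjusted p = 0.00142). Neither gene had a higher mean log2 level in TRF at any clock time, although single libraries overlapped. Atp13a4, a P5-type ATPase, and Dock2, a guanine nucleotide exchange factor of leukocytes, each fell by 0.66 on the log2 scale. Nnat, an imprinted gene, fell by 0.80, and Herc3, a ubiquitin ligase, fell by 0.52 (adjusted p = 0.000557 for Herc3).

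**Figure D1:**
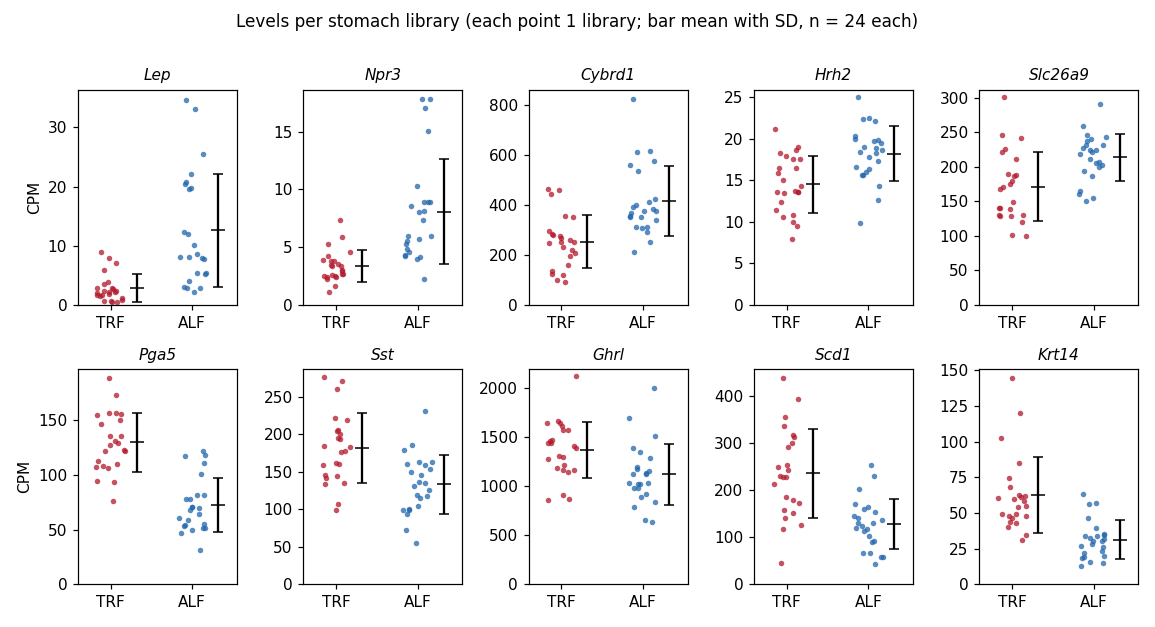
Levels in CPM of 10 genes, TRF left and ALF right in each panel; each point is 1 library and the bar gives the mean with SD (n = 24 each). Lep, Npr3, Cybrd1, Hrh2 and Slc26a9 lie lower in TRF, and Pga5, Sst, Ghrl, Scd1 and Krt14 higher, with overlap between the groups in every panel.

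Among 12 parietal cell genes tested, 1 rose and 4 fell in TRF, against 14.4% higher and 10.4% lower among all genes tested. Their log2 fold changes had a median of -0.15, compared with -0.006 over all genes tested. The pump itself did not pass the test: Atp4a had a log2 fold change of -0.07 (adjusted p = 0.453) and its partner subunit Atp4b of 0.05 (adjusted p = 0.679). With GC offsets Atp4a passed with -0.21 (adjusted p = 0.0237). Hrh2, the histamine receptor through which parietal cells are driven to secrete, had 7.94, 14.1 and 21.1 CPM in TRF and 9.86, 18.5 and 25.04 CPM in ALF libraries. It was lower in TRF at 12 of 12 clock times, by a log2 fold change of -0.33 ± 0.08 (adjusted p = 0.00396). Slc26a9, a chloride channel of gastric surface and parietal cells, had 100.5, 169.6 and 301.5 CPM in TRF and 149.8, 220.4 and 290.7 CPM in ALF libraries. It fell by 0.34 ± 0.09 on the log2 scale (adjusted p = 0.00613), with 1 clock time higher in TRF. The parietal cell transcription factor Esrrg (-0.25, adjusted p = 0.0200) lost its call with GC offsets (-0.15, adjusted p = 0.116) and without ZT0 or ZT18. The potassium channel Kcnq1 (-0.17, adjusted p = 0.0443) lost it without a filter on low counts, without the TRF library of ZT20 numbered 2 and without each of 8 single clock times. Ckb, a creatine kinase, rose by 0.66 ± 0.15 on the log2 scale (adjusted p = 0.00270). The summed level of the list ran from 7363 to 15280 CPM in TRF (median 11300) and from 8977 to 15720 CPM in ALF libraries (median 11600). Without ZT18 2 members passed as lower instead of 4.

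Of 11 receptors and regulators of acid secretion tested, 0 rose and 3 fell, against 14.4% higher and 10.4% lower among all genes tested. The median of all 11 was -0.15 on the log2 scale. The receptor for the neuropeptide PACAP, Adcyap1r1, which sits on histamine-releasing endocrine cells, had 23.4, 41.8 and 64.2 CPM in TRF and 37.2, 54.0 and 65.8 CPM in ALF libraries. It fell by 0.41 ± 0.07 on the log2 scale (adjusted p = 0.000489) and was higher in TRF at 1 of 12 clock times. Hrh2, described above, was the second. Calcrl, part of the receptors for the peptide CGRP and adrenomedullin, had a log2 fold change of -0.25 (adjusted p = 0.0272), and lost its call with GC offsets (-0.09, adjusted p = 0.318) and without each of ZT0, ZT12, ZT14 and ZT22. The gastrin receptor Cckbr, the acetylcholine receptor Chrm3 and the somatostatin receptor Sstr2 did not pass, with log2 fold changes of -0.14, -0.17 and -0.08. Ghsr, the ghrelin receptor, had 0 counts in all libraries and was not tested.

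Of 15 endocrine cell and hormone genes tested, 3 rose, 1 fell and 11 did not pass, shares close to those of all genes. With GC offsets, or without ZT22, 1 rose. Sst, the gene of somatostatin, had 99.1, 180.6 and 276.0 CPM in TRF and 54.9, 132.9 and 230.5 CPM in ALF libraries. It rose by 0.46 ± 0.11 on the log2 scale (adjusted p = 0.00421) and was higher in TRF at 11 of 12 clock times. Hdc, the enzyme that makes histamine, had 9.88, 19.3 and 31.4 CPM in TRF and 16.4, 23.6 and 37.1 CPM in ALF libraries, a fall of 0.31 ± 0.10 (adjusted p = 0.0179) that was lost without ZT14, ZT18 or ZT22 (adjusted p of 0.0702, 0.0662 and 0.0663). Ghrl, the gene of ghrelin, had 854.0, 1400 and 2119 CPM in TRF and 639.8, 1079 and 2003 CPM in ALF libraries. Ghrl rose by 0.30 ± 0.10 (adjusted p = 0.0183) and was higher in TRF at 11 of 12 clock times, but it did not pass with GC offsets (0.19, adjusted p = 0.137) or without ZT22 (adjusted p = 0.0537). Mboat4, the acyltransferase that activates ghrelin, rose by 0.26 (adjusted p = 0.0413). With GC offsets it had a log2 fold change of 0.25 but did not pass (adjusted p = 0.0713), nor did it without most single clock times. Mboat4 also lost its call without the TRF library of ZT20 numbered 2 (adjusted p = 0.0557). The same held without a filter on low counts and with a term for the number of runs (adjusted p = 0.0731 and 0.0515). Gast, the gene of gastrin, did not pass: it had 139.2, 229.5 and 842.1 CPM in TRF and 65.5, 212.8 and 1043 CPM in ALF libraries (log2 fold change 0.11, adjusted p = 0.718). Nor did Chga, which marks endocrine cells in general (0.09, adjusted p = 0.449).

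Among chief cell genes 1 of 7 rose, among mucous cell genes 1 of 10 rose, and 0 fell in either list, against 14.4% higher and 10.4% lower among all genes tested. The chief cell rise was Pga5, a pepsinogen that is cut to a stomach protease. Pga5 had 76.3, 127.8 and 188.4 CPM in TRF and 31.4, 68.6 and 121.4 CPM in ALF libraries, a log2 fold change of 0.86 ± 0.11 (adjusted p = 7e-06) with TRF higher at 11 of 12 clock times. The other pepsinogen, Pgc, had medians of 110400 CPM in TRF and 110900 CPM in ALF libraries and a log2 fold change of 0.12 (adjusted p = 0.399). Intrinsic factor, Gif, which carries vitamin B12, had 0.11 (adjusted p = 0.310). Tff2, a trefoil peptide of mucous neck cells, had 1950, 3717 and 13990 CPM in TRF and 906.2, 2554 and 6999 CPM in ALF libraries, with a log2 fold change of 0.67 ± 0.20 (adjusted p = 0.0129). Its relatives in the neck cells, Muc6 (0.53, adjusted p = 0.0676) and Gkn3 (0.58, adjusted p = 0.0830), did not pass, nor did the pit cell genes Tff1 (0.47, adjusted p = 0.0508) and Muc5ac (-0.07, adjusted p = 0.741).

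The squamous forestomach list had 12 rises and 0 falls among 18 genes tested, a median on the log2 scale of 0.43, and 8 rises with GC offsets. Over all genes tested 14.4% were higher and 10.4% lower, and 5.64% were higher with GC offsets. Krt14, a keratin of basal squamous cells, had 31.2, 57.0 and 144.5 CPM in TRF and 13.1, 30.4 and 63.7 CPM in ALF libraries. It rose by 1.05 ± 0.16 on the log2 scale (adjusted p = 0.000159) and was higher in TRF at 11 of 12 clock times. Its basal partner Krt5 rose by 0.60 ± 0.13, the suprabasal keratin Krt13 by 0.64 ± 0.13 and Sbsn, a protein of the cornifying layers, by 0.62 ± 0.13, with adjusted p of 0.00173, 0.00146 and 0.00125. From the list of largest rises, Lgals7, a galectin of stratified epithelium, rose by 1.20 ± 0.21 and Cnfn, a protein of the cornified envelope, by 1.08 ± 0.19. The 6 members that did not pass included the squamous master regulator Trp63 (0.15, adjusted p = 0.294) and the stem cell keratin Krt15 (0.11, adjusted p = 0.530). Summed over the list, TRF libraries had 2076 to 7533 CPM (median 3944) and ALF libraries 1793 to 5850 CPM (median 3006). Whether a larger share of forestomach was taken in TRF was not tested.

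Genes of skeletal muscle made up much of the list of largest rises. Of 13 striated muscle genes tested, 12 rose and 0 fell, against 14.4% higher and 10.4% lower among all genes tested. The median of the 13 was 1.82 on the log2 scale. Acta1, skeletal actin, had 0.175, 15.6 and 168.9 CPM in TRF and 0.192, 2.96 and 78.1 CPM in ALF libraries, a log2 fold change of 2.66 ± 0.60 (adjusted p = 0.00246). Mb, the oxygen store of muscle, rose by 2.26 ± 0.52. The list's summed level ran from 23.9 to 544.5 CPM in TRF (median 81.0) and from 15.1 to 264.3 CPM in ALF libraries (median 33.7). The TRF libraries with most were ZT14 numbered 2, ZT4 numbered 1, ZT18 numbered 1 and ZT6 numbered 1. With the libraries numbered 2 alone, 0 of the 13 passed. The stomach wall itself holds smooth muscle, of which 1 of 12 genes rose (Smtn, 0.28 on the log2 scale) and 0 fell. With GC offsets Smtn did not pass (0.02, adjusted p = 0.844) and Mylk, the kinase of myosin light chain, fell by 0.24 (adjusted p = 0.0308). The part of skeletal muscle in other results was not tested.

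Blood genes moved likewise, with 4 rises and 0 falls among 6 erythroid genes tested and 2 rises without any one of ZT2, ZT8, ZT14, ZT18 or ZT22. The shares over all genes tested were 14.4% higher and 10.4% lower. The alpha globin gene Hba-a2, whose copy Hba-a1 is near-identical so that counts may be split between them, rose by 1.08 ± 0.31 on the log2 scale (adjusted p = 0.0117). The erythroid sum was highest in the same TRF library of ZT14 numbered 2, at 1772 CPM, with medians of 227.7 CPM in TRF and 139.9 CPM in ALF libraries. The pancreatic acinar list summed to 12070 to 93150 CPM in TRF (median 30860) and 10770 to 60290 CPM in ALF libraries (median 28420). Most of this was colipase, Clps, a cofactor of fat digestion, with means of 29940 CPM in TRF and 27890 CPM in ALF. The pancreatic enzyme Cpa1 had 0.450, 7.14 and 4467 CPM in TRF and 0.626, 41.4 and 1809 CPM in ALF libraries, and 0 of 13 acinar genes passed the test. Hepatocyte genes summed to 104.4 to 2272 CPM in TRF and 94.4 to 1448 CPM in ALF libraries, and 0 of 10 passed. Intestinal epithelium genes had 1 rise among 13, which was lost with GC offsets.

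**Figure D2:**
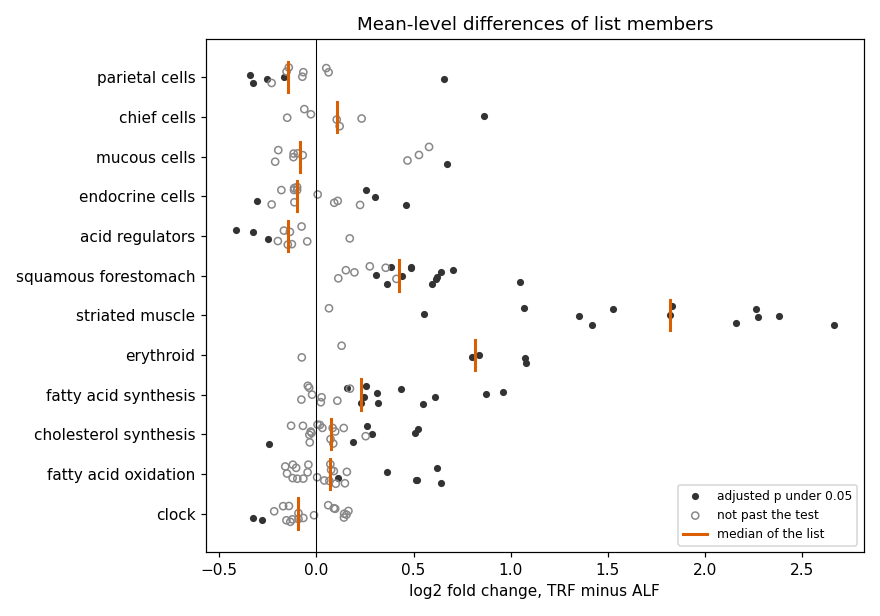
Log2 fold change (TRF minus ALF) of each tested member of 12 gene lists; filled points passed an adjusted p of 0.05, open points did not, and the orange bar is the list's median. Squamous forestomach, striated muscle and fatty acid synthesis members lie mostly to the right of 0, and parietal cell genes and acid regulators mostly to the left.

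Fatty acid synthesis genes were higher in TRF. Of 19 tested, 11 rose and 0 fell (median log2 fold change 0.23), and 8 rose with GC offsets. Over all genes tested 14.4% were higher and 10.4% lower, and 5.64% were higher with GC offsets. Scd1, the desaturase that makes oleate, had 44.9, 228.3 and 437.0 CPM in TRF and 42.2, 126.9 and 252.4 CPM in ALF libraries. Its mean was higher in TRF at 12 of 12 clock times, by a log2 fold change of 0.87 ± 0.16 (adjusted p = 0.000701). Fasn, fatty acid synthase, had 131.5, 230.3 and 386.0 CPM in TRF and 66.8, 150.4 and 328.1 CPM in ALF libraries, a rise of 0.55 ± 0.13 (adjusted p = 0.00308). Thrsp, a lipogenic regulator of fat and liver, rose by 0.96 ± 0.22, Acaca, the acetyl-CoA carboxylase, by 0.32 ± 0.07 and the elongase Elovl6 by 0.25 ± 0.07. Srebf1, the transcription factor that drives this pathway, rose by 0.44 ± 0.11 (adjusted p = 0.00576), but did not pass with GC offsets (0.17, adjusted p = 0.0664). With the libraries numbered 2 alone, 2 of the 19 fatty acid synthesis genes passed, and with those numbered 1 alone 5.

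Other lipid lists moved less. Their counts stand beside 14.4% higher and 10.4% lower among all genes tested. In cholesterol synthesis 5 of 21 genes rose and 1 fell, but 0 passed with GC offsets in either direction, although the median log2 fold change was 0.07 in both tests, and 1 rose without ZT18 or without ZT22. Of 24 fatty acid oxidation genes and targets of the receptor PPAR-alpha, 6 rose and 0 fell, and 3 rose without the TRF library of ZT20 numbered 2 or without any one of ZT0, ZT10, ZT14 or ZT22. The thioesterases Acot1 and Acot2 rose by 0.64 ± 0.13 and 0.36 ± 0.10 on the log2 scale (adjusted p = 0.00124 and 0.00839). Among fat cell genes beside these, Cidea, a lipid droplet protein, rose by 0.70 ± 0.11 and Cfd, the secreted protease adipsin, by 1.09 ± 0.27. Lipoprotein lipase, Lpl, fell by 0.34 ± 0.08 and the droplet coat gene Plin4 by 0.35 ± 0.10 (adjusted p = 0.00287 and 0.0134).

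Daily rhythms were tested by fitting a 24-h cosine and sine in each group. A rhythm passed in 3176 genes in TRF (21.4%) and in 431 genes in ALF (2.9%), 333 of them in both (2.24%). The rhythms themselves differed between the groups in 55 genes (0.371%); of 2843 genes that passed in TRF and not in ALF, 51 were among these 55, so the rest are not shown to differ. With GC offsets 3749 genes (25.3%) were rhythmic in TRF, 517 (3.48%) in ALF, and 65 (0.438%) differed. Amplitude is the rise from the mean level to the peak on the log2 scale. Over all genes tested its median was 0.167 in TRF and 0.133 in ALF, and 9061 of the 14838 genes had the larger amplitude in TRF when compared at 3 decimals. Of the rhythmic genes in TRF 41.3% peaked between ZT6 and ZT12 and 35.6% between ZT18 and ZT24, against 20.4% and 38.1% in ALF. Genes rhythmic in both groups peaked later in TRF by a median of 0.47 h, and in 291 of the 333 the peaks lay within 2 h of each other. With the libraries numbered 1 alone, or 2 alone, 0 rhythm differences passed (edgeR; 874 and 2509 genes at an unadjusted p under 0.05, against 2722 with all libraries), and DESeq2 on all libraries called 286.

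The clock ran in both groups. Of 19 core clock and clock output genes tested, 18 were rhythmic in TRF and 16 in ALF, with a median amplitude of 1.15 in TRF and 1.05 in ALF (log2). Dbp, a transcription factor that carries clock signals to metabolic genes, had the largest amplitude of the list, 2.49 ± 0.15 with a peak at ZT13.15 in TRF and 2.24 ± 0.15 with a peak at ZT11.73 in ALF. Its mean level by clock time was lowest at 1.88 CPM at ZT4 and highest at 68.8 CPM at ZT12 in TRF, and lowest at 1.86 CPM at ZT2 and highest at 54.7 CPM at ZT10 in ALF. The activator Arntl (Bmal1) peaked at ZT2.04 in TRF and ZT1.39 in ALF, with amplitudes of 1.15 and 1.12. The repressor Per2 peaked at ZT17.34 in TRF and ZT16.59 in ALF, with amplitudes of 1.765 and 1.554. In both groups the activator was thus highest after lights on and the repressor in the dark. The only clock gene whose rhythm passed the difference test was Nr1d1 (Rev-erb alpha), a repressor of Arntl, which peaked at ZT11.19 ± 0.22 in TRF and ZT9.73 ± 0.23 in ALF (adjusted p = 0.0293). Its amplitudes were 1.90 and 1.84, and its levels were 39.0, 48.04, 89.5, 53.4 and 65.5 CPM at ZT6, ZT8, ZT10, ZT12 and ZT14 in TRF, against 44.1, 54.9, 75.1, 50.2 and 37.0 CPM in ALF. The difference did not pass with GC offsets (adjusted p = 0.0640). Dbp had a difference p of 0.0864 after adjustment, and its close relative Tef of 0.253. Rora alone was rhythmic in neither group, and Rorb had too few counts to be tested. In mean level 2 of the 19 clock genes were lower in TRF and 0 higher, and 0 passed with GC offsets. The share that was lower is close to that of all genes tested, of which 10.4% were lower and 14.4% higher.

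**Figure D3:**
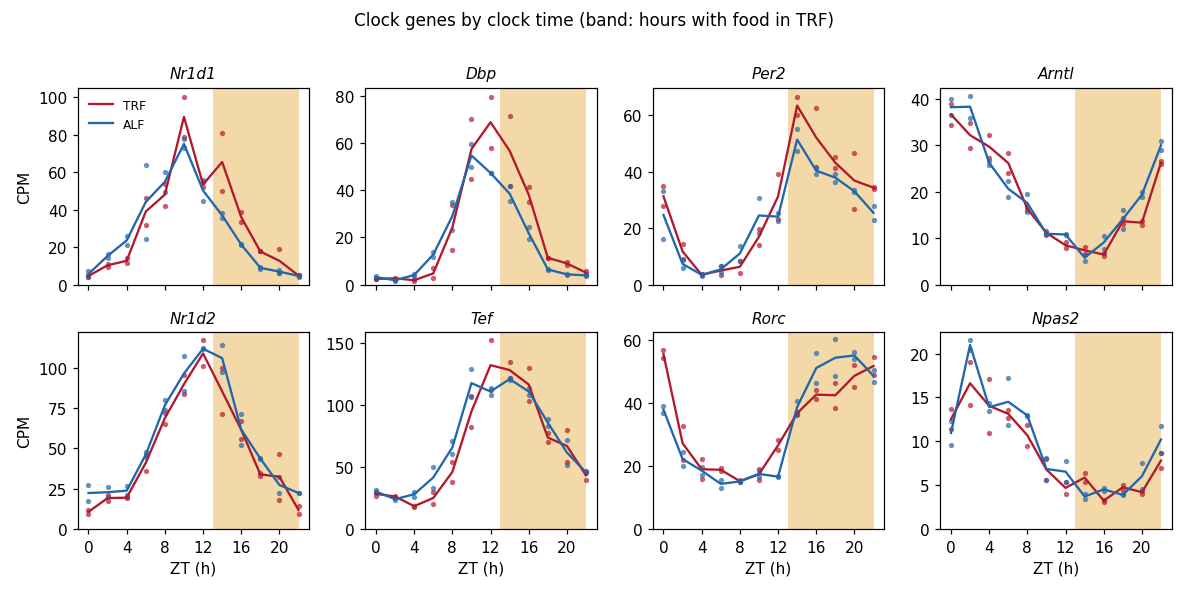
Levels in CPM of 8 clock genes against ZT in h, TRF in red and ALF in blue; points are libraries, lines join the means of 2 libraries, and the band marks the hours with food in TRF. The curves of both groups follow each other, and Nr1d1 and Dbp stay high later in TRF, at ZT14.

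The E-box CACGTG is the site that the Bmal1 and Clock pair is known to bind. Promoter windows of 250 bases before to 50 after the start of transcription were searched for its exact letters, which read the same on both strands. It occurred in 5 of 17 clock genes with a window (29.4%; Per1, Cry1, Tef, Bhlhe41 and Ciart), against 8.09% of all genes of the RefSeq table and 11.2% of the tested genes. Ciart, a repressor of the loop, peaked at ZT14.00 in TRF and ZT12.18 in ALF with amplitudes of 2.00 and 1.86, Per1 at ZT15.26 in TRF and ZT13.78 in ALF with 1.06 and 0.71, and Tef at ZT14.56 in TRF and ZT13.84 in ALF with 1.32 and 1.15. The windows of these 3 genes, whose transcripts peaked around the start of the dark phase, are shown from RefSeq on build GRCm38.p6, 5′ to 3′ in the direction of the gene, with the E-box in capitals.
Ciart (chr3:95882179-95882478, minus strand): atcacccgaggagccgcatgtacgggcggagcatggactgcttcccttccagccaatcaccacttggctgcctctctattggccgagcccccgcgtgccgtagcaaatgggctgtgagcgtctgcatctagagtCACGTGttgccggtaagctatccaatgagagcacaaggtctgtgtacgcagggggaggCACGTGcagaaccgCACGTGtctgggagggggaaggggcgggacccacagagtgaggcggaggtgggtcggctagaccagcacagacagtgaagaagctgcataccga
Per1 (chr11:69098699-69098998, plus strand): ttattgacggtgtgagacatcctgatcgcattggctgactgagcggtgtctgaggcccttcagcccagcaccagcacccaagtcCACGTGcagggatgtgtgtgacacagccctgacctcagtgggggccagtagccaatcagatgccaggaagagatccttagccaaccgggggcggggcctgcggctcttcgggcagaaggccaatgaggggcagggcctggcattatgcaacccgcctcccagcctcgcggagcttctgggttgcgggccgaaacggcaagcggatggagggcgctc
Tef (chr15:81802423-81802722, plus strand): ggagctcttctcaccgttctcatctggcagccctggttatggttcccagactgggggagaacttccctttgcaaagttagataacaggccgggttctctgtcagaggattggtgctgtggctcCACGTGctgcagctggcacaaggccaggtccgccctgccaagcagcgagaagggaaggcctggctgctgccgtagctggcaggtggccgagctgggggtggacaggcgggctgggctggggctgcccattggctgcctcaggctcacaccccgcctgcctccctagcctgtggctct

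Fuel genes were among those whose rhythm differed. In TRF 13 of 24 fatty acid oxidation genes were rhythmic, in ALF 1, and the rhythm of 3 differed between the groups. Among all genes tested these shares were 21.4%, 2.9% and 0.371%. Acot1, which splits long-chain acyl-CoA, had means of 22.9, 25.6, 28.4, 18.8 and 16.2 CPM at ZT4, ZT6, ZT8, ZT10 and ZT12 in TRF, when these mice had no food, and 10.2, 10.8, 7.76, 9.24 and 8.74 CPM in ALF. In the TRF libraries of ZT0 and ZT2, also hours without food, Acot1 had 10.5 and 8.58 CPM, and 9.15 and 10.9 CPM. At ZT22, the end of the meal, it was at 8.57 CPM in TRF and 8.91 CPM in ALF. Single TRF libraries spread from 14.1 to 32.1 CPM between ZT4 and ZT12. Its amplitude was 0.95 ± 0.10 with a peak at ZT7.24 in TRF, a 3.74-fold course from trough to peak, and 0.25 ± 0.10 in ALF. Pdk4, which holds pyruvate back from oxidation, had 0.68 ± 0.11 with a peak at ZT6.45 in TRF and 0.16 ± 0.11 in ALF (difference adjusted p = 0.0241 for both). Angptl4, an inhibitor of lipoprotein lipase, had an amplitude of 1.16 in TRF and 0.14 in ALF but missed the threshold of the difference test (adjusted p = 0.0708). A pair of day-peaking genes outside the list, Txnip, which restrains glucose uptake, and Herc3, differed as well. Txnip had an amplitude of 0.55 with a peak at ZT7.48 in TRF and 0.12 in ALF (adjusted p = 0.0242, and 0.0509 without the TRF library of ZT20 numbered 2). Herc3 had 0.78 with a peak at ZT8.76 in TRF and 0.25 in ALF (adjusted p = 0.0241).

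Lipid synthesis had the opposite timing. Of 19 fatty acid synthesis genes 6 were rhythmic in TRF, 0 in ALF, and 4 differed: Scd2, Thrsp, Acaca and Fasn. Scd2, a desaturase, had means of 261.3, 287.9, 258.2 and 210.5 CPM at ZT16, ZT18, ZT20 and ZT22 in TRF, and 104.0, 155.2, 143.1 and 179.1 CPM in ALF. At ZT6 and ZT8 it had 99.96 and 97.6 CPM in TRF and 147.0 and 170.2 CPM in ALF, so the groups crossed over the day and the mean level did not pass (log2 fold change 0.17, adjusted p = 0.277). Its amplitude was 0.67 ± 0.08 with a peak at ZT19.51 in TRF and 0.10 ± 0.08 in ALF (difference adjusted p = 0.0100). Thrsp peaked at ZT20.00 in TRF with an amplitude of 0.99 against 0.39 in ALF, and Acaca at ZT20.65 with 0.29 against 0.14. Fasn peaked at ZT19.58 with 0.56 against 0.16, and its difference (adjusted p = 0.0421) was lost without the TRF library of ZT20 numbered 2 (adjusted p = 0.0573). Scd1, the member with the largest mean difference after Thrsp, was rhythmic in neither group (adjusted p = 0.596 in TRF and 0.973 in ALF).

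In cholesterol synthesis 12 of 21 genes were rhythmic in TRF and 1 in ALF, and 4 differed, Fdps, Mvd and Fdft1 among them, and 2 without the TRF library of ZT20 numbered 2. Fdps, farnesyl diphosphate synthase, peaked at ZT17.48 ± 0.92 in TRF and ZT9.40 ± 0.99 in ALF with amplitudes of 0.36 and 0.34, and an adjusted p of 0.0241 for the difference. Mvd, a decarboxylase earlier in the pathway, peaked at ZT17.12 ± 1.08 in TRF and ZT8.27 ± 1.12 in ALF with amplitudes of 0.47 and 0.46 (adjusted p of the difference 0.0242). In ALF neither passed the rhythm test (adjusted p = 0.0602 and 0.103), which leaves those ALF peak times uncertain. Among mucous cell genes Muc5ac, the main mucin of the gastric surface, differed in rhythm without a difference in mean. It had an amplitude of 0.57 with a peak at ZT19.52 in TRF, and 0.28 with a peak at ZT5.30 in ALF (adjusted p of the difference 0.0242). Its rhythm in ALF did not pass (adjusted p = 0.253), so its ALF peak time is uncertain too. Of the 15 endocrine genes, Ghrl and Gast included, 0 had a 24-h rhythm past the threshold in either group.

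**Figure D4:**
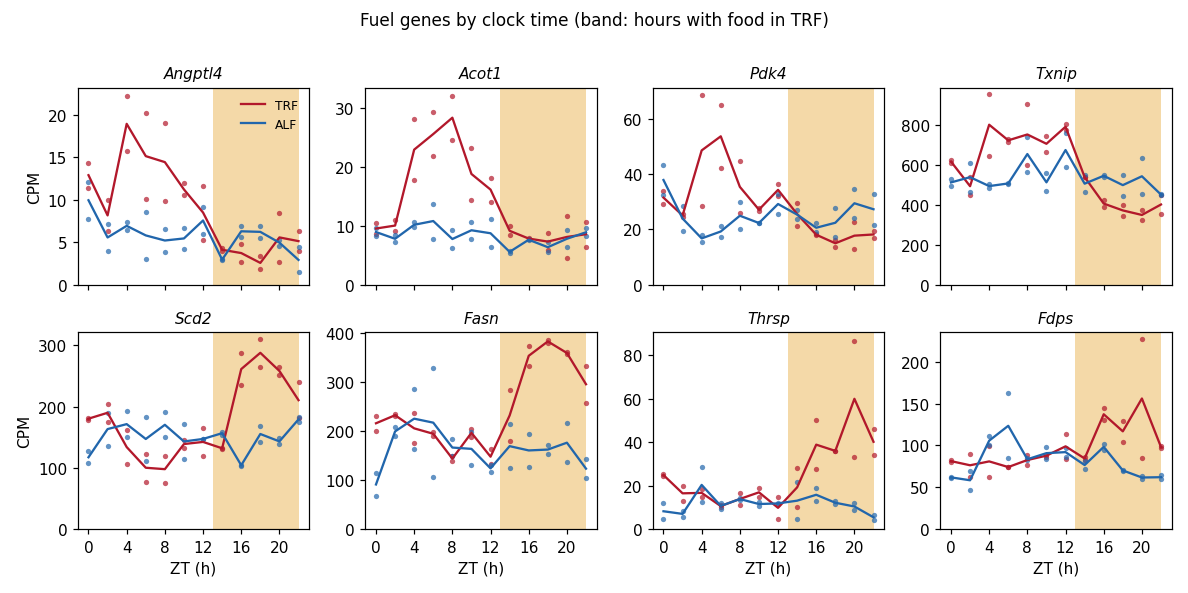
Levels in CPM of 8 fuel genes against ZT in h, TRF in red and ALF in blue; points are libraries, lines join the means of 2 libraries, and the band marks the hours with food in TRF. In TRF Angptl4, Acot1, Pdk4 and Txnip are high in part of the hours outside the band, though Acot1 is low at ZT0 and ZT2. Scd2, Fasn, Thrsp and Fdps are high within the band in TRF. The ALF curves are flatter except that of Fdps, which is highest at ZT6.

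More chaperone genes were rhythmic in TRF than in ALF, as among all genes tested (21.4% in TRF and 2.9% in ALF). Of all 14838 genes 9061 had the larger amplitude in TRF. The test of the difference itself passed in 1 of 20 cytosolic heat shock genes, Hspa1b, and in 0 of 20 of the endoplasmic reticulum. Of 20 cytosolic heat shock genes 17 were rhythmic in TRF and 5 in ALF, with a median amplitude of 0.51 and 0.28, and 19 had the larger amplitude in TRF. Hspa1b, an inducible Hsp70 whose counts may be split with its near-identical copy Hspa1a, had 324.6 and 405.7 CPM in the 2 TRF libraries of ZT14, 1 h after food was given, and 7.41 and 21.4 CPM in the 2 ALF libraries of that time. At the other clock times it reached at most 96.7 CPM in TRF, at ZT22, and 144.4 CPM in ALF, at ZT0. Its rhythm difference (adjusted p = 0.0456) did not pass with the replicate number as a block (adjusted p = 0.0551), with a term for the number of runs, with a second harmonic or without the TRF library of ZT20 numbered 2. Hsph1, an Hsp110 co-chaperone, had 408.9 and 370.3 CPM in TRF and 80.1 and 108.4 CPM in ALF libraries at ZT14, and was rhythmic in both groups (amplitude 1.17 and 0.90). In mean level 6 of the 20 rose and 0 fell, with GC offsets 4 rose, and 2 rose in both tests. Over all genes tested 14.4%, 10.4%, 5.64% and 4.96% did so. The largest rise was that of the small heat shock gene Hspb1 (0.995 ± 0.168, adjusted p = 0.000349). In the endoplasmic reticulum 16 of 20 chaperone genes were rhythmic in TRF and 6 in ALF, the amplitude was larger in TRF in 20 of 20, and 0 differed. Calr, a calcium-binding chaperone, had an amplitude of 0.59 with a peak at ZT20.55 in TRF and 0.26 with a peak at ZT22.10 in ALF. Sdf2l1, a cofactor of the Hsp70 of the reticulum, had 0.89 with a peak at ZT19.60 in TRF and 0.36 in ALF.

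Heat shock factor is known to bind inverted repeats of the letters GAA. The pair GAANNTTC, which reads the same on both strands, was found in the promoter windows of 9 of 15 heat shock genes (60%), against 9.04% of all genes of the RefSeq table, 6.99% of the tested genes and 0 of the 17 clock genes. The window of Hspa1b holds 1 pair and that of Hspb1 holds 2; they are shown in the same way because these genes had the largest amplitude in TRF and the largest mean difference of the list, with the pairs in capitals.
Hspa1b (chr17:34959189-34959488, minus strand): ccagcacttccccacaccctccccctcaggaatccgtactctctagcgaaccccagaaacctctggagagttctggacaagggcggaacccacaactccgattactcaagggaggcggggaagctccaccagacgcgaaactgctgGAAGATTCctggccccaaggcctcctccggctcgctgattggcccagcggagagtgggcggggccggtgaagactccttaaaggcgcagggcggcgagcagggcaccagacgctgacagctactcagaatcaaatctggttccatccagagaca
Hspb1 (chr5:135887669-135887968, plus strand): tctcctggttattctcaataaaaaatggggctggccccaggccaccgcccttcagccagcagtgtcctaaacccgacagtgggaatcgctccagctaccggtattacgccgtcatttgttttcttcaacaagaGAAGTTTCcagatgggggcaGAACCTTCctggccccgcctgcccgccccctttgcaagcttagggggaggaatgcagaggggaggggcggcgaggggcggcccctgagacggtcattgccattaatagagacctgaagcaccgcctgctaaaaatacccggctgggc

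Transcripts of many proliferation genes followed a daily course in both groups. Of 20 tested, 20 were rhythmic in TRF and 11 in ALF, and 0 differed between the groups. The amplitude was larger in TRF in 20 of 20, with medians of 0.69 and 0.42. Among all genes tested 21.4% were rhythmic in TRF and 2.9% in ALF, and 9061 of 14838 had the larger amplitude in TRF. Peak times of some members are given here, and an order among them was not tested. The replication licensing gene Mcm5 peaked at ZT20.02 in TRF and ZT20.94 in ALF, and the replication clamp Pcna at ZT19.63 in TRF. The mitotic genes Top2a, Plk1 and Ccnb1 peaked at ZT23.88, ZT0.03 and ZT2.92 in TRF and at ZT23.64, ZT1.23 and ZT2.16 in ALF. Mcm5 had means of 30.4, 43.6 and 39.9 CPM at ZT16, ZT18 and ZT20 in TRF, against 21.4, 21.1 and 19.7 CPM in ALF, and its difference test gave an adjusted p of 0.217. In mean level 4 of the 20 rose and 0 fell, 2 with GC offsets and 1 without ZT18 or without ZT20. The mean-level shares over all genes tested were 14.4% higher and 10.4% lower.

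**Figure D5:**
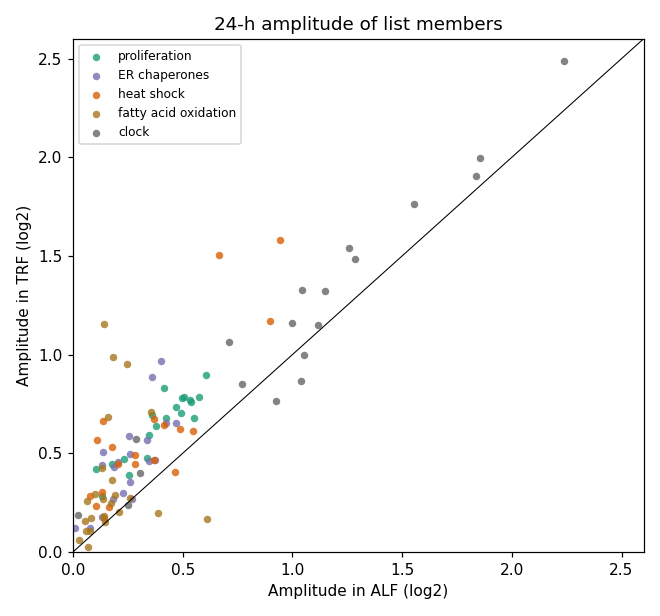
Amplitude of the 24-h rhythm (log2) in TRF against that in ALF for members of 5 gene lists, with the line of equal amplitude. Proliferation and endoplasmic reticulum chaperone genes all lie above the line, and clock genes lie close to it at larger amplitudes.

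The ribosomal RNA precursor Rn45s and Lars2 were also among the 55 genes with a rhythm difference, with amplitudes of 2.20 and 2.24 in TRF (peaks at ZT20.21 and ZT20.13) and 0.97 and 1.07 in ALF. Rn45s, which poly(A) selection should largely remove, accounted for a median of 2.36% of each TRF library and 4.05% of each ALF library, and its mean by clock time was lowest at 3218 CPM in TRF and 6274 CPM in ALF, both at ZT12. Libraries of 1 sequencing run made up 11 of 12 at ZT0 to ZT4 and 12 of 36 at ZT6 to ZT22. The part of such library differences in the rhythms was not tested, beyond the following fits. With a term for the number of runs, 50 of the 55 differences passed again. Without the counts of Rn45s, Lars2 and Mir6236, 50 passed as well. There Rn45s and Lars2, themselves among the 55, could not pass. The ribosomal protein genes Rps16 and Rpl36 had some of the largest rises in mean level, 1.71 ± 0.28 and 1.59 ± 0.35 on the log2 scale, but such genes have many near-identical copies in the genome, so their counts are uncertain.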

How the data were processed

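Polyadenylated RNA of whole stomach was sequenced as stranded libraries. Per the submitters' processing notes, CASAVA 1.8, FastQC 0.11.8, STAR 2.5.3a and HOMER 4.10 were used with the mouse genome mm10 (GRCm38); settings are not given in the sources used here. The authors deposited 1 table of expected counts with 24537 rows and 1 column per library; 31.93% of the stomach values were not whole, and values were rounded to whole numbers. Date-like duplicate names (4 rows) were left out. The other 987 columns were not used.

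Members and gene lists were chosen with earlier results of these data known. In R 4.3.3, edgeR 4.0.16 filtered genes (filterByExpr), scaled libraries (TMM) and fitted quasi-likelihood models: feeding with clock time as a factor, and a 24-h cosine and sine per group. Benjamini-Hochberg adjustment ran over all genes tested, with 0.05 as the threshold. For amplitudes, peak times and their errors, log2 CPM (prior count 2) were fitted in limma 3.58.1, without a test. GC offsets were a lowess trend per library (span 0.3). The models were tested on simulated data. Replicate numbers were not used to pair the groups. Across genes, the difference between libraries 1 and 2 in TRF was correlated with that in ALF. The correlation ran from -0.149 to 0.368 over 12 clock times, with 4 above 0.1, and the block is given as an alternative. Alternatives are in the closing section. Named genes followed a rule: the 15 largest rises and falls past the test with and without GC offsets (at least 5 CPM, same sign in both replicate numbers), the 15 largest amplitudes per group, the 15 smallest p of the rhythm difference, up to 5 members of each list, and all clock, endocrine, parietal, chief and mucous cell genes. Adipoq, Plin1, Plin4, Cpa1, Clps, Smtn, Mylk, Cckbr, Sstr2, Elovl6, Srebf1, Krt15, Trp63, Pcna, Top2a and Ccnb1 fall outside the rule and were named after their values were seen.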

Additional observations from a re-analysis of the deposited data

How the results depend on the processing

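Counts of genes past the threshold are compared with 3677 for mean level, 3176 and 431 for rhythm in TRF and in ALF, and 55 for the rhythm difference. Mean-level counts moved to 566 at an absolute log2 fold change of at least 0.5, 1648 with GC offsets and 2275 without ZT22. Leaving out 1 replicate number gave 250 to 2200 genes for mean level (8 and 1106 with GC offsets, chosen after seeing the data), 336 to 1008 for rhythm in TRF, 21 to 78 for rhythm in ALF and 0 for the rhythm difference either way. With the replicate number as a block the counts were 3706, 3170, 427 and 54; the block with GC offsets gave 1666 for mean level and 68 for the rhythm difference. The labels do not say what a replicate number shares. DESeq2 1.42.0 in place of edgeR gave 669 genes for rhythm in ALF and 286 for the rhythm difference, a second harmonic of 12 h gave 202, and leaving out the TRF library of ZT20 numbered 2 gave 32, of which 30 were among the 55. Other settings kept the counts within 1.5 times. Calls were compared for a set of 58 genes past the test in mean level. The set is not the same as the genes named in the text. It holds Irf7 and Oas2, which are not named elsewhere. It leaves out some named genes, among them Smtn, Kit and Etv1, which lost their calls with GC offsets. In 9 settings that left out no replicate number or clock time, 503 of 522 calls were kept, 19 lost and 0 reversed. These settings include the fit without the TRF library of ZT20 numbered 2. Of the 58 genes, 39 lost the call without the libraries numbered 2 and 19 without those numbered 1. With GC offsets as well, 55 and 26 lost it. The cause of each move was not tested.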

Other observations

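Values of some genes outside digestion and fuel use are given here; among all genes tested 14.4% were higher and 10.4% lower in TRF. The metallothionein Mt1, which binds zinc and copper, had 30.1, 128.1 and 258.5 CPM in TRF libraries (lowest, median, highest) and 20.6, 63.8 and 153.1 CPM in ALF libraries. It rose by 0.98 ± 0.19 on the log2 scale and was higher in TRF at 12 of 12 clock times (edgeR, adjusted p = 0.000903), and Mt2 rose by 0.79 ± 0.20 (adjusted p = 0.00615). Of 20 immediate early genes 4 rose and 3 fell, and with GC offsets 2 rose and 4 fell. Junb and Ier2 rose by 0.92 ± 0.21 and 0.71 ± 0.15, each higher in TRF at 12 of 12 clock times, while Atf3 fell by 0.40 ± 0.11. In ribosome biogenesis 6 of 20 genes rose and 0 fell, 4 with GC offsets. The nucleolar methyltransferase Fbl had 6.55, 8.54 and 19.6 CPM in TRF and 3.55, 5.92 and 9.16 CPM in ALF libraries (log2 fold change 0.61 ± 0.11, adjusted p = 0.0006), and Bop1 rose by 0.48 ± 0.09. Of 15 genes of enteric neurons, glia and interstitial cells 0 rose and 3 fell, and with GC offsets 2 fell, 1 of them in both tests. Elavl4, an RNA-binding protein of neurons, fell by 0.52 ± 0.13 (adjusted p = 0.00523), while Kit and Etv1, which mark the pacemaker cells of the gut, had -0.23 and -0.37 and lost their calls with GC offsets (-0.17 and -0.30, adjusted p = 0.0684 and 0.0561).

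Calls among interferon-stimulated genes depended on the clock times included. Of 22 tested 6 rose and 0 fell, against 14.4% and 10.4% of all genes tested, with a median log2 fold change of 0.34. With GC offsets 0 passed (edgeR), although the median was 0.35. There was 1 rise without any of ZT0, ZT14, ZT18 or ZT22, and there were 12 without ZT12. Their summed level ran from 431.9 to 2222 CPM in TRF (median 559.3) and from 376.0 to 1335 CPM in ALF libraries (median 492.0). Intestinal genes had 6 rhythmic members of 13 in TRF and 0 in ALF, with 0 differing. Among all genes tested 21.4% were rhythmic in TRF and 2.9% in ALF. Libraries of the same clock time could lie far apart. Alpi, a member of the list, had 423 and 23.9 CPM in the TRF libraries of ZT12. In the ALF libraries of ZT14 it had 409 and 6.55 CPM. The sucrase Sis averaged 181.7 CPM at ZT8 and 118.5 CPM at ZT12 in TRF, and 147.7 CPM at ZT14 in ALF, with 3.38 to 56.4 CPM at the other clock times in TRF and 4.03 to 27.2 CPM in ALF.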
